A study of Mus musculus with 15 samples.

Results

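Cd79a, Cd79b, Ms4a1, Fcrla, Fcer2a, Blk, Pax5, Cd22 and Cr2 are 9 genes used as markers of B lymphocytes, and their RNA was measured in mouse lung after feeding with permethrin, a pyrethroid insecticide. Every array probe whose RefSeq transcript belongs to one of these symbols was taken, which gave 15 probes for 9 of the 23785 gene symbols on the array. Whole lungs came from 15 females of the outbred stock Crlj:CD1(ICR), aged 11 weeks. Each mouse had eaten a powdered diet for 7 days, and 3 mice were given each of 5 diets, containing 0 (control), 20, 500, 2500 or 5000 ppm permethrin. Each lung was hybridised to 1 array of a single-colour Agilent platform, labelled with the dye Cy3. The labels call the 3 mice of a diet biological replicates. The labels name no other agent and no allele for any mouse.

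B lymphocytes recognise antigen through a membrane immunoglobulin that signals through the Ig-alpha and Ig-beta chains, encoded by Cd79a and Cd79b. Surface proteins such as CD22 and the complement receptor CD21 set how strongly the receptor signals, and the transcription factor Pax5 maintains B cell identity. In the lung of a healthy mouse, B cells are found in the blood within the vessels and in the tissue, and after some exposures also in lymphoid clusters along the airways.

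A level is given here as the log2 processed signal of a probe minus the 75th percentile of its own array, so that 0 is the brightness of the probe at that percentile. Levels compare mice for 1 probe and do not compare one probe with another. The surfactant gene Sftpc lay between 9.11 and 9.61 and the club cell gene Scgb1a1 between 9.17 and 10.11 over the 15 arrays, both near the top of all features, which matches the labelled tissue. Between 72.05% and 87.62% of spots on each array were well above background and 0 were saturated. The scanner files gave extraction status 1 for 500 ppm mouse 3 and 2500 ppm mouse 3, and 0 for all other arrays. Spots marked as outliers numbered 274 for 2500 ppm mouse 3, against 104 to 145 elsewhere. Arrays from 500 ppm mouse 3 and 2500 ppm mouse 3 stood apart on the first principal component (36.5% of the variance, scores 161.3 and 65.8 against −53.6 to 19.3 elsewhere), and control mouse 1 and 20 ppm mouse 1 on the second (17.9%, scores −88 and −79.3 against −24.3 to 33.4). Slide 1 held the control and 20 ppm arrays with 500 ppm mice 1 and 2, and slide 2 held all the others. Slide and diet therefore cannot be told apart for 2500 or 5000 ppm against control, whereas 20 ppm against control and 5000 against 2500 ppm were compared within a slide.

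On the probes used, mice on the same diet differed by up to 3.32-fold in Ms4a1, but by at most 1.38-fold in Cd22 and 1.73-fold in Pax5. For Blk the span reached 10.8-fold, which rests on 1 mouse. Of the 9 genes, 4 were high or low together in the same mice, namely Cd79b, Ms4a1, Fcrla and Fcer2a. No member passed the test for a difference between diets. Control mice were close to each other in Cd79b, Ms4a1 and Fcrla, which varied together. They were not close in every member, since they spanned 2.0-fold in Cd79a, the widest of any diet, and 1.81-fold in Cr2. In Cd79b, Ms4a1 and Fcrla, 1 mouse each on 20 and 2500 ppm lay far below its diet mates. The array of that 20 ppm mouse, mouse 1, is one of those standing apart. The part of the array in its B cell levels was not tested. In RNA from whole lung, fewer B cells and less RNA per B cell cannot be told apart.

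Ms4a1 encodes CD20, a membrane protein of B cells from the precursor stage until they become plasma cells. Its levels were 2.29, 2.38 and 2.23 in control mice, 0.86, 2.59 and 2.12 at 20 ppm, 2.32, 1.78 and 2.37 at 500 ppm, 1.03, 1.98 and 2.01 at 2500 ppm and 2.41, 2.01 and 1.49 at 5000 ppm, for mice 1, 2 and 3 in that order. The lowest values were those of 20 ppm mouse 1 and 2500 ppm mouse 1, followed by 5000 ppm mouse 3. The highest and lowest mice on the 20 ppm diet differed 3.32-fold, whereas the 3 control mice spanned 1.11-fold.

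Cd79b encodes the Ig-beta chain of the antigen receptor. It measured 3.68, 3.68 and 3.55 in control mice, 2.50, 3.96 and 3.50 at 20 ppm, 3.65, 3.01 and 3.83 at 500 ppm, 2.41, 3.47 and 3.65 at 2500 ppm and 3.76, 3.51 and 3.06 at 5000 ppm. The same 20 ppm and 2500 ppm mice were again lowest, and the 20 ppm mice spanned 2.75-fold against 1.09-fold among control mice.

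Fcrla encodes an Fc receptor-like protein kept inside the B cell. Fcrla levels were −0.60, −0.82 and −0.79 in control mice, −1.78, −0.46 and −0.85 at 20 ppm, −0.67, −1.48 and −0.48 at 500 ppm, −2.18, −1.14 and −1.11 at 2500 ppm and −0.90, −1.33 and −1.68 at 5000 ppm. All 3 mice at 2500 ppm and all 3 at 5000 ppm lay below all 3 control mice, while at 20 and 500 ppm the ranges overlapped the control range.

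Fcer2a encodes CD23, the low-affinity receptor for IgE, found on mature follicular B cells. It measured −0.84, −1.42 and −1.08 in control mice, −2.20, −0.88 and −1.41 at 20 ppm, −0.99, −1.83 and −0.75 at 500 ppm, −2.45, −1.66 and −1.27 at 2500 ppm and −1.19, −1.58 and −2.07 at 5000 ppm. Mouse 1 of the 20 ppm diet and mouse 1 of the 2500 ppm diet had the lowest values, and every diet overlapped control.

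Cr2 encodes the complement receptor CD21, carried by mature B cells and by follicular dendritic cells. Its levels were 0.69, 0.71 and 1.54 in control mice, 0.39, 1.23 and 0.97 at 20 ppm, 0.73, 0.79 and 1.57 at 500 ppm, 0.51, 1.22 and 0.95 at 2500 ppm and 1.16, 0.87 and −0.25 at 5000 ppm. Here 5000 ppm mouse 3 was the lowest, below both mice that were lowest for Ms4a1, and no diet was separate from control.

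**Figure D1:**
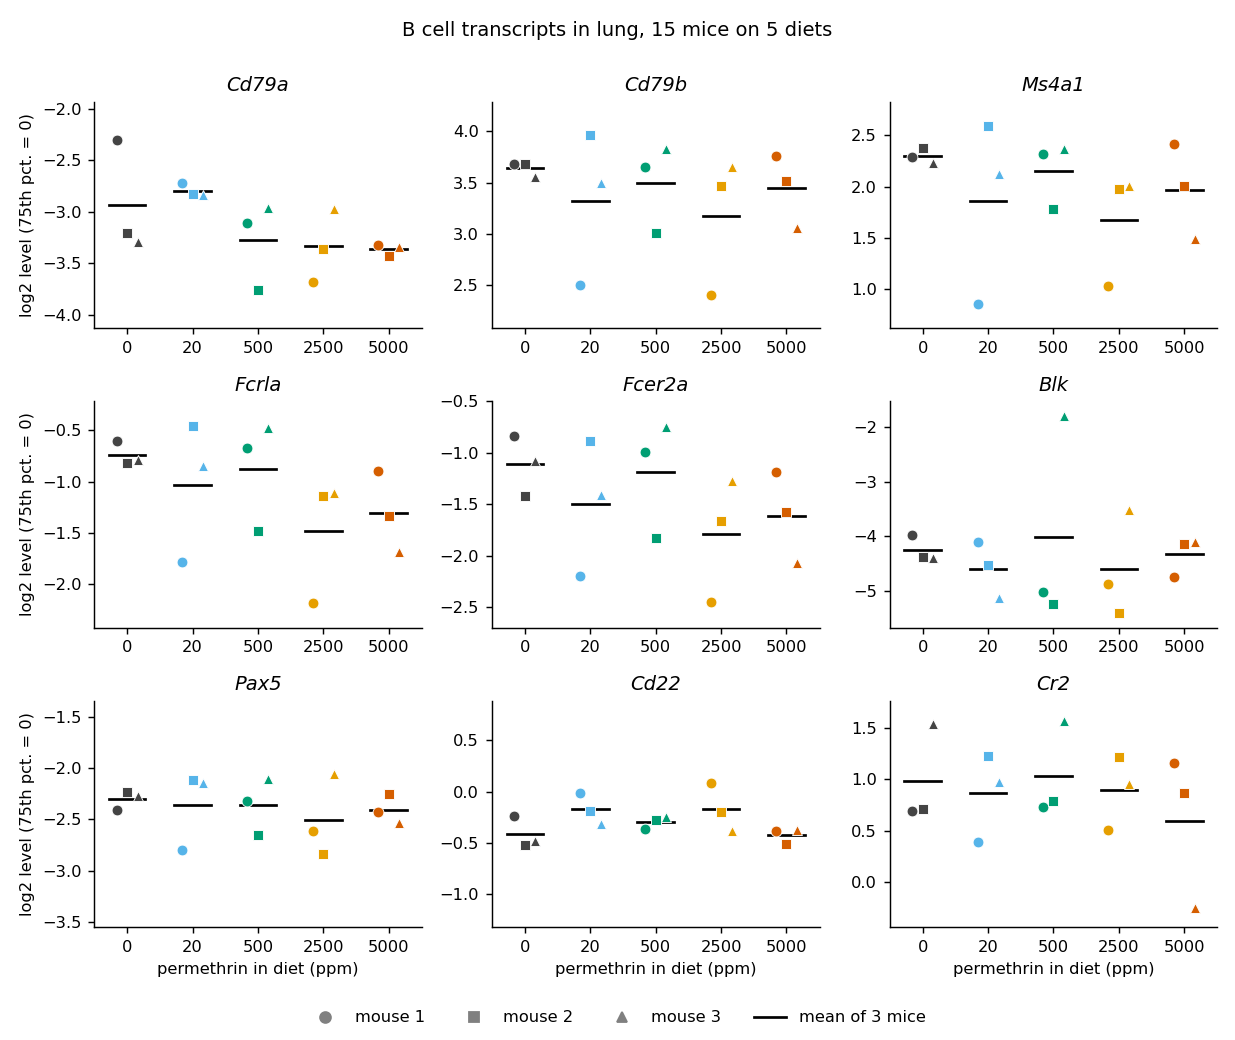
Log2 level of the 9 B cell genes (vertical axes, relative to the 75th percentile of each array) in each of the 15 mice, by diet in ppm permethrin (horizontal axes), with a bar at the mean of 3 mice. For Ms4a1, the 3 control mice lie between 2.23 and 2.38, while the 20 ppm mice lie between 0.86 and 2.59.

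The remaining 4 genes differed in how far they shared this pattern. Cd79a, which encodes Ig-alpha, the partner of Ig-beta, measured −2.30, −3.21 and −3.29 in control mice, −2.72, −2.83 and −2.84 at 20 ppm, −3.11, −3.76 and −2.96 at 500 ppm, −3.68, −3.36 and −2.97 at 2500 ppm and −3.32, −3.43 and −3.34 at 5000 ppm. Control mouse 1 was the highest of all 15, 20 ppm mouse 1 was second highest, and the 5000 ppm mice lay just below the control range. Pax5 ranged from −2.84 in 2500 ppm mouse 2 to −2.06 in 2500 ppm mouse 3, a 1.73-fold span over all arrays. Its level was −2.80 in 20 ppm mouse 1, the second lowest, and −2.61 in 2500 ppm mouse 1, so it partly followed Ms4a1. Cd22, which encodes an inhibitory sialic acid-binding receptor, ranged from −0.52 in control mouse 2 to 0.08 in 2500 ppm mouse 1, a 1.52-fold span. The mice lowest for Ms4a1 were thus the highest for Cd22 on this probe. Blk encodes a Src-family kinase that acts downstream of the receptor, and its probe was dim, well above background on 11 of 15 arrays. Blk measured −1.80 in 500 ppm mouse 3, whereas the other 14 arrays lay between −5.40 and −3.51. That mouse's array was one of those standing apart, and the part of the array in its Blk level was not tested.

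The standard deviation between mice of a diet was 0.54 for Ms4a1, 0.53 for Fcer2a and 0.51 for each of Cd79b, Fcrla and Cr2, against a median of 0.32 over all 34401 features tested. Between 24.7% and 26.9% of all features had a larger standard deviation than these 5. It was 0.35 for Cd79a, 0.29 for Pax5, 0.15 for Cd22 and 1.01 for Blk, whose value rests on 1 mouse.

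Whether permethrin changed B cell transcripts was tested for each dose against control, for 5000 against 2500 ppm, for a trend over the ranked diets and for any difference among diets. The tests were fitted by limma across all features, with Benjamini-Hochberg adjustment. Of the 9 members, 0 passed an adjusted p of 0.05 in any of these comparisons. Among all features, 0% passed at 20, 500 and 2500 ppm against control and for 5000 against 2500 ppm, 0.0407% passed at 5000 ppm against control, 0.142% for the trend and 0.0407% for any difference among the diets. At an unadjusted p of 0.05, no dose gave a member against control, where 1.48%, 2.84%, 8.49% and 5.14% of all features passed at 20, 500, 2500 and 5000 ppm. The count was also 0 for 5000 against 2500 ppm (5.04% of all features) and for any difference among diets (5.36%), and 1 for the trend (9.22%). That member was Cd79a, with a slope of −0.14 ± 0.06 log2 per dose rank (SE, 15 mice, unadjusted p = 0.0424, limma adjusted p = 0.528). Without control mouse 1, whose array stands apart and whose Cd79a was the highest, the slope was −0.08 (unadjusted p = 0.176, limma adjusted p = 0.999).

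At 5000 ppm, 9 of 9 members had a difference from control below 0, against 39.4% of all features, and their median was −0.33 on the log2 scale against 0.07 for all features. Cd22 is counted among these at a difference of 0.00. At 2500 ppm, 8 of 9 were below 0, against 42.7% of all features, with a median of −0.40 against 0.05. The 20 ppm diet had 7 of 9 below 0 (55.6% of all features) and a median of −0.30 against −0.03, and the 500 ppm diet had 6 of 9 below 0 (29.6%) and a median of −0.08 against 0.12. Direction within the list is not independent evidence for each gene, since the same few mice were low in several members. Without 20 ppm mouse 1, the 20 ppm median was 0.09, so its sign rests on that mouse. Within slide 1, where 2 of the 500 ppm mice lay, the 500 ppm median was −0.30. With slide as a fixed block, which only the 500 ppm diet bridges, the medians were −0.95 at 2500 ppm and −0.91 at 5000 ppm, and 1 member passed, Blk, whose highest level was that of 500 ppm mouse 3, the only mouse of that diet on slide 2 (limma adjusted p = 0.00818 and 0.0115).

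The largest differences at the upper doses were those of Fcrla. It differed by −0.74 ± 0.38 log2 at 2500 ppm (SE, 3 against 3 mice, 95% interval −1.57 to 0.09, limma adjusted p = 0.656) and differed by −0.57 ± 0.38 at 5000 ppm (−1.40 to 0.26, adjusted p = 0.967). Ms4a1 differed by −0.62 ± 0.40 at 2500 ppm (−1.50 to 0.25, adjusted p = 0.763) and by −0.33 ± 0.40 at 5000 ppm (−1.20 to 0.55, adjusted p = 0.970). All intervals of these 2 genes included 0, and their lower bounds lay at −1.20 or below. The second Ms4a1 probe went the other way, 0.06 ± 0.48 at 2500 ppm and 0.21 ± 0.48 at 5000 ppm, and the mean of both probes gave −0.28 and −0.06. Without 2500 ppm mouse 1, the differences at 2500 ppm were −0.39 for Fcrla and −0.30 for Ms4a1. Without 5000 ppm mouse 3, those at 5000 ppm were −0.38 and −0.09.

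Differences of Fcer2a were −0.68 ± 0.40 at 2500 ppm and −0.50 ± 0.40 at 5000 ppm, and those of Cd79b were −0.46 ± 0.39 and −0.19 ± 0.39. Without 2500 ppm mouse 1 they were −0.35 for Fcer2a and −0.08 for Cd79b at 2500 ppm, and without 5000 ppm mouse 3 they were −0.27 and 0.00 at 5000 ppm. Cd79a gave −0.40 ± 0.28 and −0.43 ± 0.28, but −0.08 and −0.11 without control mouse 1. The differences were for Cr2 −0.08 ± 0.39 and −0.38 ± 0.39, and Pax5 −0.20 ± 0.23 and −0.10 ± 0.23. Cd22 was the member with the tightest estimate, 0.25 ± 0.15 at 2500 ppm (95% interval −0.08 to 0.58) and 0.00 ± 0.15 at 5000 ppm (−0.33 to 0.33), both for the probe used. Its other probes gave −0.69 ± 0.48 and 0.20 ± 0.50 at 2500 ppm, and −0.50 ± 0.48 and 0.19 ± 0.50 at 5000 ppm, so no direction can be given for the gene. Blk gave −0.35 ± 0.74 and −0.08 ± 0.74, too wide to place its level.

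Of 9 members, 2 lay wholly below control at 2500 ppm and 2 at 5000 ppm, a larger share than over all features. Members shared their low mice, and slide and diet cannot be told apart there, so these counts are not independent evidence. At 2500 ppm Ms4a1 and Fcrla had all 3 mice below all 3 control mice, as did 4.72% of all features, and at 5000 ppm Cd79a and Fcrla did, as did 4.99%. At 20 and 500 ppm, 0 members lay wholly below control, against 4.34% and 2.15% of all features. No member had all treated mice above all control mice, against 1.5%, 4.53%, 8.83% and 12.9% of all features at 20, 500, 2500 and 5000 ppm. Between the upper doses, 5000 ppm was above 2500 ppm in 6 of 9 members, with a median difference of 0.17 against 0.03 for all features. In that comparison 3 of 9 members lay below 0, against 44.7% of all features, and no member had groups that did not overlap (7.1% of all features were wholly lower and 8.12% wholly higher at 5000 ppm).

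**Figure D2:**
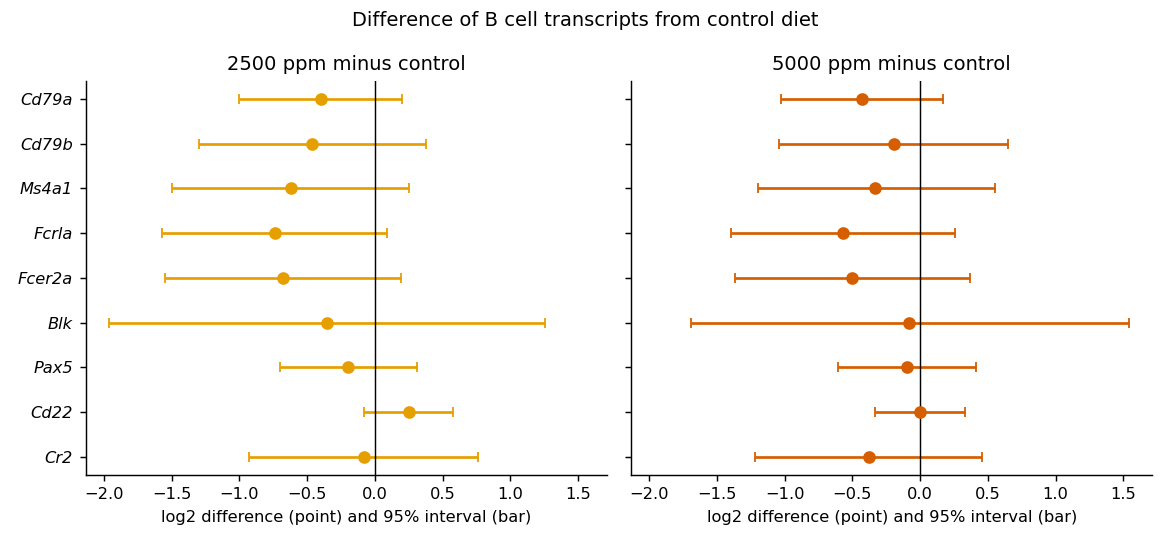
Log2 difference from the control diet for each member (horizontal axis) with its 95% interval (bars), 1 panel per dose. The Fcrla interval at 2500 ppm reaches from −1.57 to 0.09, and all 9 intervals include 0 at 2500 and at 5000 ppm.

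How the members varied together over the 15 mice was measured against Ms4a1, a reference gene picked after its values had been seen. Pearson's r with Ms4a1 was 0.97 for Cd79b, 0.93 for Fcrla and 0.91 for Fcer2a. Each had a permutation p of 1e-05, the smallest that the 100000 permutations can give, or 2.67e-05 after adjustment over the 8 relations computed. Spearman's rho was 0.94 (adjusted permutation p = 8e-05), 0.87 (0.0002) and 0.82 (0.000827) for the same genes in order. Leaving out the 2 mice farthest from the median of Ms4a1, 20 ppm mouse 1 and 2500 ppm mouse 1, r was 0.92, 0.92 and 0.86. Within slide 1 (8 mice) it was 0.98, 0.94 and 0.89, and within slide 2 (7 mice) 0.98, 0.96 and 0.94. The relation of these 3 genes to Ms4a1 thus held within each slide, though each slide holds 1 of those 2 mice.

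Cr2 followed Ms4a1 less closely, with r = 0.63 (adjusted permutation p = 0.0184) and rho = 0.55 (adjusted p = 0.0552). Its r was 0.63 without the 2 mice, 0.57 in slide 1 and 0.74 in slide 2. Pax5 had r = 0.67 (adjusted permutation p = 0.0122) and rho = 0.60 (0.0424), with r = 0.50 without those mice, 0.88 in slide 1 and 0.45 in slide 2. Cd22 had r = −0.63 (adjusted permutation p = 0.0184) but rho = −0.31 (0.289), and r was 0.09 without the 2 mice, so the negative relation rests on them. Its r was −0.65 in slide 1 and −0.61 in slide 2, each of which holds 1 of these mice. The relations of Cr2, Pax5 and Cd22 did not all stay past the threshold under other processing. Cd79a (r = 0.25, adjusted permutation p = 0.41) and Blk (r = 0.13, 0.638) showed no relation past the threshold. Among Cd79b, Ms4a1, Fcrla, Fcer2a and Cr2, the 10 pairs had r between 0.61 and 0.97, and the other 26 pairs of members had r between −0.63 and 0.71. The group of 5 was set by hand, so this contrast is only a description. Pax5, outside it, had r of 0.71, 0.67, 0.65 and 0.69 with Cd79b, Ms4a1, Fcrla and Fcer2a. Those of Cr2 with the same genes were 0.61, 0.63, 0.64 and 0.66.

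**Figure D3:**
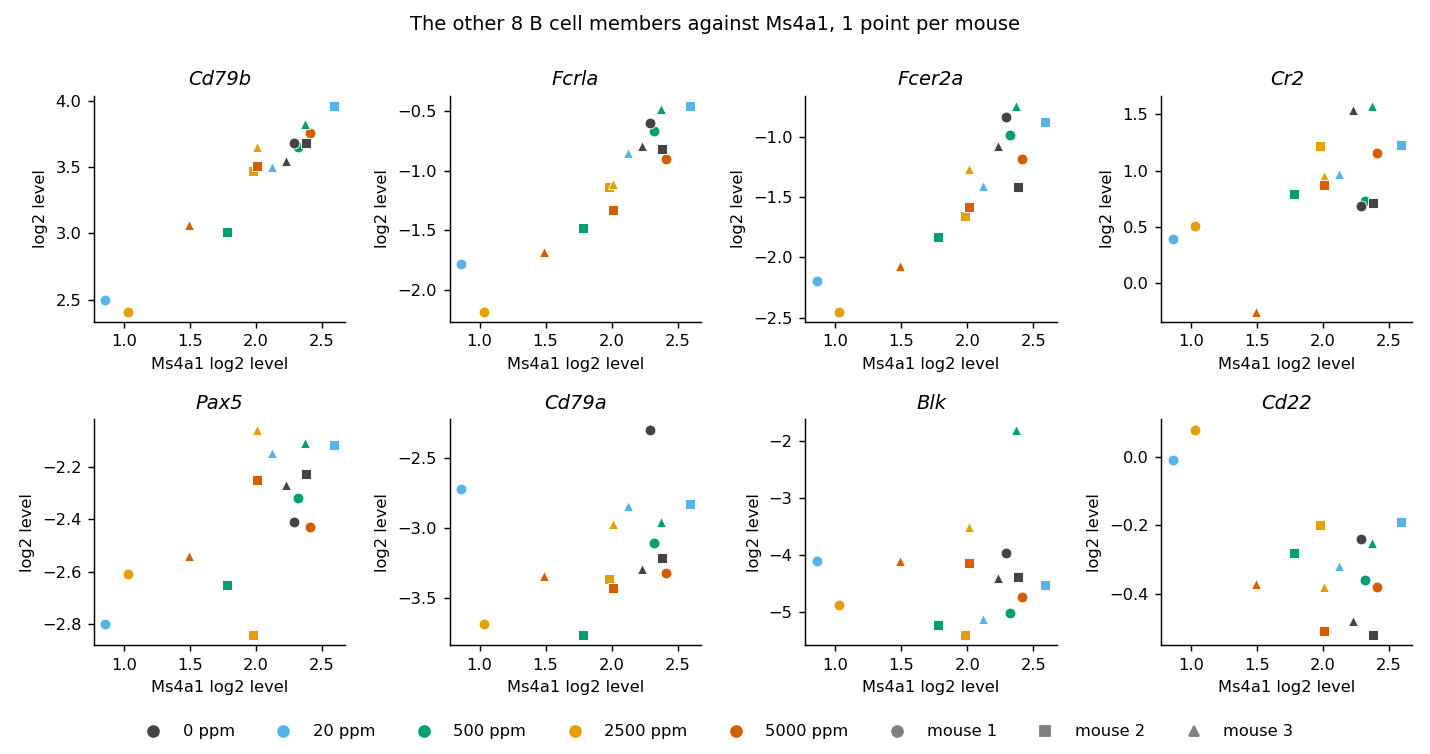
Log2 level of each of the other 8 members (vertical axes, scaled separately) against that of Ms4a1 (horizontal axes), 1 point per mouse. Cd79b follows Ms4a1 over its whole range (r = 0.97), while Cd22 and Blk do not.

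**Figure D4:**
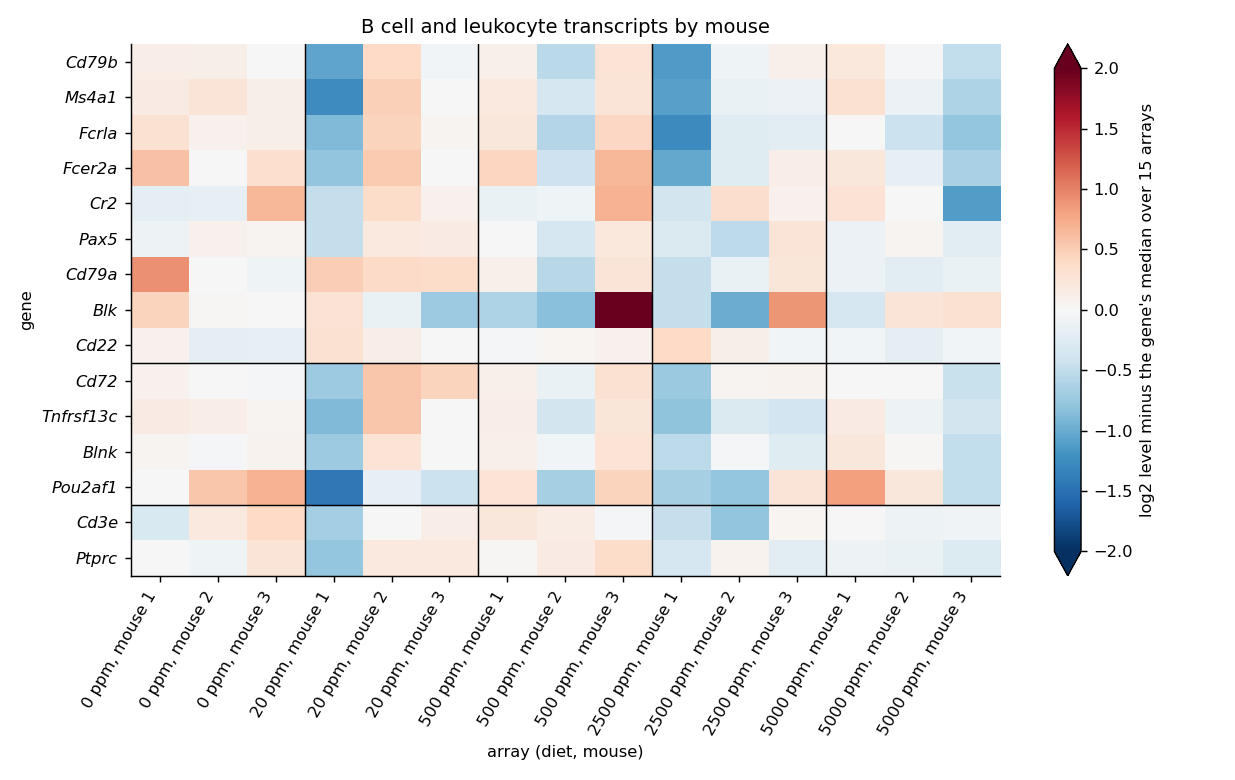
Level of each member in each mouse minus the gene's median over the 15 arrays (colour, log2, with the scale capped so that the Blk value of 500 ppm mouse 3 is beyond it), with 4 further B cell genes, the T cell gene Cd3e and Ptprc in the lower blocks. The columns of 20 ppm mouse 1 and 2500 ppm mouse 1 are low for Cd79b, Ms4a1, Fcrla and Fcer2a.

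Other probes of a member did not always give its pattern. Both further Cr2 probes followed the one used (r = 0.79 and 0.82) and Ms4a1 as well (r = 0.77 and 0.84). Of the 2 further Cd22 probes neither followed the one used (r = 0.01 and −0.04), so the level of Cd22 depends on the probe. One of them measured −1.17 in control mouse 1, −1.83 in 20 ppm mouse 1 and −1.31 in 500 ppm mouse 3, against −3.04 to −2.26 in the other mice, and these 3 arrays are among those that stand apart. The second Ms4a1 probe had r = 0.36 with the first. It measured 0.23 in 500 ppm mouse 3 and −0.96 in 2500 ppm mouse 3, whose arrays stand apart on the first principal component, and −2.17 to −1.36 elsewhere. The second Pax5 probe was well above background on 3 arrays and was not tested.

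Other genes of the B cell lineage moved with Ms4a1 to unequal degrees over the 15 mice, given here as a description. Tnfrsf13c, the BAFF receptor that keeps mature B cells alive, had r = 0.95, and the adaptor Blnk had r = 0.94. The surface protein Cd72 had r = 0.89, the kinase Btk 0.78, the transcriptional coactivator Pou2af1 0.77 and the follicle homing receptor Cxcr5 0.68. Ebf1, a transcription factor of the lineage also expressed in stromal cells, had r = 0.34, the antibody joining chain gene Jchain 0.34 and the follicle chemokine Cxcl13 0.29. No probe was named Ighm or Ighd.

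Of the fixed B cell lists, 0 of 26 identity and surface genes, 0 of 22 receptor signalling genes, 0 of 19 tested homing and survival genes and 0 of 10 tested immunoglobulin and plasma cell genes passed in either direction at any dose. These lists were assembled with earlier results of the data known. Their median differences at 5000 ppm were −0.11, −0.04, 0.03 and 0.04, against 0.07 for all features, and at 2500 ppm −0.10, −0.16, −0.07 and 0.00, against 0.05. Among the named genes, Cxcr5 differed by −0.99 at 2500 ppm (limma adjusted p = 0.432) and by −0.49 at 5000 ppm, and Cxcl13 by 0.46 and 0.83.

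The 8 genes whose levels were most like the mean of the members were Cd37 (r = 0.926), Fcmr (0.886), Gpr37l1 (0.884), Gfy (0.872), Spib (0.863), Stap1 (0.854), Dera (0.852) and Olfr411 (0.851). They were chosen by this r out of 17007 candidates, of which 27 had an r of at least 0.8. Cd37 is a tetraspanin of B cells, Fcmr the receptor for IgM and Spib a transcription factor of the B lineage. Gpr37l1, Gfy, Stap1, Dera and Olfr411 are in none of the cell lists used here. The member mean includes Blk and was highest, at −0.06, in 500 ppm mouse 3, whose array stands apart. Fcmr measured 0.59 in 20 ppm mouse 1 and 0.18 in 2500 ppm mouse 1, against a median of 1.55. Its differences were −0.96 at 2500 ppm (limma adjusted p = 0.522) and −0.51 at 5000 ppm (0.967).

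By summed level, several lists of other leukocytes were also low in these mice, but not all. Summed over 10 general leukocyte genes, the log2 level was 6.47 in 20 ppm mouse 1 and 6.65 in 2500 ppm mouse 1, the lowest of all, against 6.92 to 7.32 in the other mice. The member sum was 3.41 and 3.40 in those mice, against 3.77 to 4.73. Ptprc, the common leukocyte antigen CD45, measured 2.76 and 3.19 in the same mice, with a median of 3.53. Summed levels correlated with Ms4a1 at r = 0.87 for the general leukocyte list, 0.67 for NK cells, 0.65 for neutrophils, 0.61 for alveolar macrophages, 0.57 for T cells and −0.12 for dendritic cells and MHC class II. The last list was highest of all in 20 ppm mouse 1, at 8.72, and stood at 8.10 in 2500 ppm mouse 1. Summed levels of the wider B cell lists had a lower r than most of these. It was 0.42 for identity and surface, 0.46 for receptor signalling, 0.52 for homing and survival and 0.22 for immunoglobulin and plasma cells. A sum follows the brightest genes of its list, so these values do not rank how closely lists followed Ms4a1. By mean level, identity and surface genes were lowest in 20 ppm mouse 1 (0.11) and 2500 ppm mouse 1 (0.14). The other mice lay between 0.27 and 0.76. The receptor signalling and homing lists were also lowest in these mice by that measure. Immunoglobulin and plasma cell genes were lowest in 2500 ppm mouse 1 (0.79), with 0.99 in 5000 ppm mouse 1. General leukocyte genes were lowest by mean level in 20 ppm mouse 1 (2.42) and 2500 ppm mouse 1 (2.45). T cell and NK genes were lowest in 20 ppm mouse 1 (−0.35 and −0.38). Neutrophil genes were not low by mean level in 20 ppm mouse 1 (2.30), and stood at 1.53 in 2500 ppm mouse 1. The other mice lay between 1.51 and 2.46 for neutrophil genes. The part of leukocyte content, tissue sampling, RNA quality or the array in the B cell levels was not tested.

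These lists too had 0 genes past the threshold at any dose. At 5000 ppm the median difference was −0.17 for 20 T cell genes, −0.01 for 12 NK genes, −0.20 for 12 dendritic and MHC class II genes, −0.06 for 11 alveolar macrophage genes, 0.07 for 12 neutrophil genes, −0.40 for 6 erythroid genes and −0.20 for 10 general leukocyte genes. At 2500 ppm the medians were −0.28, −0.52, −0.35, −0.16, −0.07, −0.15 and −0.24 for the same lists. Of the first genes of each list, given next for the mice lowest in Ms4a1, Cd3e was 2.29 in 20 ppm mouse 1 and 2.50 in 2500 ppm mouse 1 with a median of 2.97, and Cd74, a chaperone of MHC class II also made by B cells, was 5.92 and 4.86 with a median of 5.30. Cd74 was thus highest of all mice where Ms4a1 was lowest. The T cell gene Cd3d was 1.79 and 2.29 (median 2.60), the leukocyte gene Cd52 was 4.39 and 4.57 (5.22), and the neutrophil genes S100a8 and S100a9 were 5.53 and 5.74 (6.35) and 7.26 and 7.40 (8.11). The NK receptor gene Ncr1 was −2.43 and −2.41 (−1.94), and Klrb1c was −0.88 and −0.06 (−0.04). Cd3d, Cd52, S100a8, S100a9, Ncr1 and Klrb1c thus lay below their medians in both mice. The MHC class II gene H2-Aa was 1.11 and −0.42 (0.87), the macrophage genes Marco and Chil3 were 3.30 and 3.59 (3.39) and 7.13 and 7.43 (7.61), and the globin gene Hba-a1 was 8.98 and 9.32 (9.39). H2-Aa and Marco therefore each lay above the median in 1 of these mice and below it in the other. No probe was named Hbb-bs.

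The promoter windows of the members that had an entry were searched for 3 short motifs of B cell transcription factors, on both strands. These are the octamer ATGCAAAT, bound by Oct factors with the Pou2af1 coactivator, the EBF1 palindrome, which is TCCC and then GGGA after any 2 bases, and GAGGAAGT, a form of the Ets site bound by PU.1 and Spi-B. They occur in 1.6%, 0.78% and 2.44% of 32817 RefSeq promoter windows of the same kind. The windows shown are the 250 bases before the start of each gene, from RefSeq on GRCm38.p6, given for Fcrla and Fcer2a because their RNA followed Ms4a1, for Cr2 because it followed less closely and for Cd22 because it did not. Cd79b, Ms4a1 and Blk had no entry. Positions are chr1:170927584-170927833 on the minus strand for Fcrla, chr8:3694175-3694424 on the minus strand for the outermost Fcer2a start, chr1:195176720-195176969 on the minus strand for Cr2 and chr7:30879029-30879278 on the minus strand for Cd22. Capitals mark the only motif match, an EBF1 palindrome in Cd22, 49 bases before the start.
Fcrla: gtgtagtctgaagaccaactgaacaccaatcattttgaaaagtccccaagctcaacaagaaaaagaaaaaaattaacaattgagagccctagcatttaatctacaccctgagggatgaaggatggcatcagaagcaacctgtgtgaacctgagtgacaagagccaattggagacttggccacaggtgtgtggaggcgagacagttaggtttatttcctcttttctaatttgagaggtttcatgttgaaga
Fcer2a: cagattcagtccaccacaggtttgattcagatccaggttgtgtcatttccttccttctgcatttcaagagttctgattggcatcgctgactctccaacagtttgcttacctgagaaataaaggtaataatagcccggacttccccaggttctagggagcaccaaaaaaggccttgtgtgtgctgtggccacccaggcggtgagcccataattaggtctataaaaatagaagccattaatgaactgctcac
Cr2: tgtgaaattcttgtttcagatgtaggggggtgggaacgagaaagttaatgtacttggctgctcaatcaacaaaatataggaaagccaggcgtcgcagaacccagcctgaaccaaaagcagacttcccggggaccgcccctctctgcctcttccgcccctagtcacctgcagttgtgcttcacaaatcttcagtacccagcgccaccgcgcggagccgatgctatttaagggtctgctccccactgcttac
Cd22: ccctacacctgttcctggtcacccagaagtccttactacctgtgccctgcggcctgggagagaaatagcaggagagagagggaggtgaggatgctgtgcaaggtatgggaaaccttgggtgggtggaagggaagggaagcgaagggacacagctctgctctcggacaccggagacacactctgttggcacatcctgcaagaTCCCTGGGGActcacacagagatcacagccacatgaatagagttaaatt

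Cd79a and Pax5 windows held no match either. The EBF1 pattern reads alike on both strands because GGGA is the reverse complement of TCCC and the 2 bases between them are free. A match is a description of these letters, and its absence says nothing of whether a factor binds elsewhere.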

How the data were processed

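The authors deposited 1 scanner file per array, with intensity values from Agilent Feature Extraction 10.7.3.1 per the file headers, and a table of log2 values that differed from the log2 processed signal by 1 constant per array. The headers of slide 1 name mm9; the build of slide 2 is not given in the sources used here. Control and outlier-marked spots were left out, spots of a probe were averaged, and log2 processed intensity was set relative to each array's 75th percentile. Probes well above background on all 3 arrays of a diet were kept (43154 of 56605), and the brightest probe stood for a gene, giving 34401 features (34675 probes had 1 RefSeq symbol). limma 3.58.1 in R 4.3.3 was fitted with 1 coefficient per diet (10 residual degrees of freedom), with Benjamini-Hochberg adjustment over all features and a two-sided threshold of 0.05; it was tested on simulated data. Relations used Python 3.11.15 and scipy 1.17.1, with two-sided permutation tests. No counts exist, so the number of arrays limits precision.

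The text names all members, 12 B cell genes irrespective of movement (1 of them is not reported here), the 8 genes most like the member mean, and the first 2 genes of each list of other cells. Members and lists were chosen with earlier results of these data known. Alternatives tried were other background correction, scaling, filters, probe rules, array weights, slide and mouse-number blocks, and leaving out mice.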

Additional observations from a re-analysis of the deposited data

How the results depend on the processing

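No member passed under any alternative except the fixed slide block, where 1 passed at 2500 ppm, 5000 ppm, the trend and any difference among diets. It was Blk (−3.67, adjusted p = 0.00818 at 2500 ppm, and −3.40, 0.0115 at 5000 ppm), which rests on 500 ppm mouse 3, the only mouse of its diet on slide 2. That block called 5055 and 4952 of all features at those doses, and gave member medians of −0.95 at 2500 ppm (−0.40 without the block) and −0.91 at 5000 ppm (−0.33). The 20 ppm median of −0.30 turned to 0.10 with array weights, 0.11 without control and 20 ppm mouse 1 and without the 4 arrays that stand apart, and 0.09 without 20 and 2500 ppm mouse 1, the last chosen after seeing the data. Leaving out each mouse in turn gave medians of −0.38 to 0.09 at 20 ppm, −0.30 to 0.11 at 500 ppm, −0.70 to −0.21 at 2500 ppm, −0.45 to −0.09 at 5000 ppm and −0.13 to 0.36 for 5000 against 2500 ppm.

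Single differences that changed sign were those of the second Ms4a1 probe against the first (0.06 at 2500 ppm and 0.21 at 5000 ppm), Blk at 2500 ppm (0.05 with normexp, −0.89 to 0.06 leaving out a mouse), Cd22 at 2500 ppm (−0.08 as the mean of its probes), Cr2 at 2500 ppm (0.11 without 20 and 2500 ppm mouse 1, −0.25 to 0.20 leaving out a mouse), and at 5000 ppm Cd79a (0.02, normexp), Pax5 (0.11, normexp), Blk (0.25 normexp, 0.01 array weights, 0.07 without control and 20 ppm mouse 1 or the 4 arrays, −0.19 to 0.13 leaving out a mouse), Cd22 (0.02 array median, 0.07 array weights, 0.08 without control and 20 ppm mouse 1 or the 4 arrays, −0.06 to 0.08 leaving out a mouse) and Cr2 (−0.66 to 0.04 leaving out a mouse). The r with Ms4a1 turned to −0.34 for Blk with the array median, to −0.09 for Blk without 500 and 2500 ppm mouse 3, and to 0.09 for Cd22 without 20 and 2500 ppm mouse 1. The causes were not tested. For Cd79b, Fcrla and Fcer2a it stayed past the threshold in all 8 other settings, at 0.86 to 0.98. A replicate block on the mouse numbers called 0 members and left the medians at −0.30, −0.08, −0.40, −0.33 and 0.17; numbers did not pair the mice, since the deviations of like-numbered mice correlated above 0.1 in 4, 3 and 2 of 10 pairs. The random slide block had a correlation of 0.262.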
